A study of Mus musculus with 2 samples.

Results

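Kupffer cells are the macrophages that live in the sinusoids of the liver, and 119 of 18786 kept cell barcodes were assigned to them in tumours from the livers of mice of 2 genotypes. A barcode was taken as a Kupffer cell when it held at least 10 UMIs (unique molecular identifiers, each counting 1 captured transcript) of C1qa, C1qb and C1qc together, at least 3 UMIs of Cd5l, Vsig4 and Clec4f together, and a UMI of at least 2 of these 3 genes. The cells were thus chosen by measured values of these genes. A Kupffer cell could hold at most 1 UMI of Sox5 and at most 1 of Stab2, and none of Cd3d, Cd3e, Cd3g or Cd79a. The selection gave 12 cells in the Crtc2+/+ library and 107 in the Crtc2-/- library. Barcodes that met every condition except those on the 3 genes are called C1q macrophages here, and numbered 4650 and 721 with the Kupffer cells included. Those with no UMI of any of the 3 genes, 4537 and 405, served as the comparison population.

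The product of Crtc2 assists the transcription factor CREB, which carries cAMP signals into the nucleus. Mice of both genotypes had received diethylnitrosamine (DEN, a liver carcinogen) at 25 mg/kg into the peritoneum at the age of 2 weeks and were kept on a diet that induces steatohepatitis (NASH diet) from week 8 to week 26, so no untreated or tumour-free liver stands beside them. Tumours were dissociated and profiled on the 10x Genomics platform, with 1 library per genotype, and the sources used here do not give how many mice or tumours a library holds, nor which Crtc2 exons are deleted and in which cells. The genotype could not be tested, since cells that share a library do not replicate it, and every interval given is an exact 95% interval that covers counting error only. Genotype, mouse, tumour and library cannot be told apart in any comparison between the libraries.

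Kupffer cells clear particles, dying cells and aged red cells from portal blood, and return the iron of those red cells to the circulation. Those seeded in the embryo renew themselves and carry Timd4 and Marco, while monocytes that enter an emptied niche gain Clec4f, Vsig4 and Cd5l first and Timd4 late. In steatohepatitis and liver tumours, monocyte-derived macrophages that carry Trem2, Gpnmb, Spp1 and Cd9, called lipid-associated or scar-associated macrophages, appear beside them.

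The 3 genes that chose the cells encode a secreted scavenger protein of macrophages (Cd5l, also called AIM), a receptor for complement fragments that also inhibits T cells (Vsig4), and a lectin that is restricted to Kupffer cells in the mouse (Clec4f). In GRCm38, Cd5l lies on chromosome 3 at 87357881 to 87371073 on the plus strand, Vsig4 on chromosome X at 96247203 to 96293438 on the minus strand, and Clec4f on chromosome 6 at 83644542 to 83656187 on the minus strand. Crtc2 itself lies on chromosome 3 at 90254163 to 90264125, which is 2.88 Mb from Cd5l, so DNA flanking an altered Crtc2 allele can reach the Cd5l gene. Whether the 2 libraries differ in that DNA was not tested.

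The 250 bases before the RefSeq start of each gene (GRCm38.p6) are shown because these 3 genes define the cells and CRTC2 acts at promoters through CREB. They cover chr3:87357631-87357880 on the plus strand for Cd5l, chrX:96293439-96293688 on the minus strand for Vsig4 and chr6:83656117-83656366 on the minus strand for Clec4f. Capitals mark matches on either strand to 4 short motifs, none of which overlapped another here: TGACG (the half-site of the cAMP response element that CREB binds), GGAAGT (a core of ETS factors such as PU.1), TGCTGA (the half-site of Maf factors) and AGGTCA (the half-site of nuclear receptors such as LXR).
Cd5l: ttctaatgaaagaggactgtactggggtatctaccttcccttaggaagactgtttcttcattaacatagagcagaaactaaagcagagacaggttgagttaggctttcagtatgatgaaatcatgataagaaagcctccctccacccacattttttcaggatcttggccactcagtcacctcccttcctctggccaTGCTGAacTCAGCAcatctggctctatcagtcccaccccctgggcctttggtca
Vsig4: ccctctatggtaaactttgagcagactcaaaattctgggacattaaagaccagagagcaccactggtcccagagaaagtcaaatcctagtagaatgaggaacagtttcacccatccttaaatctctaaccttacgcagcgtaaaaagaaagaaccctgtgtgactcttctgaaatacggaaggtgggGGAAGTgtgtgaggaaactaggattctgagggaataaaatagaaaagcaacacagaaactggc
Clec4f: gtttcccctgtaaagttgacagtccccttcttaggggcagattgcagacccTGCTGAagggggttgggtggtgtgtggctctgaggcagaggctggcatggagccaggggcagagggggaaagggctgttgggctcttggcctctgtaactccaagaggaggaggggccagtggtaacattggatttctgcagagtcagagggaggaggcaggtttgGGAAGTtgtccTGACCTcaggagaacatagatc
None of the 3 windows held TGACG, which occurred in 17.8% of 32851 RefSeq mouse promoter windows of the same length. Cd5l held TGCTGA at 2 positions (16.1% of all windows held it), Vsig4 held GGAAGT at 1 (19.7%), and Clec4f held TGCTGA once, as well as 1 match to GGAAGT and 1 to the nuclear receptor half-site AGGTCA (14.02%). Over 17 windows of 15 further Kupffer cell genes, TGACG occurred in 1, GGAAGT in 6, TGCTGA in 5 and AGGTCA in 2. These are matches of letters only.

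The libraries were of like size and depth, with 81487425 and 78040008 UMIs over 9707 and 9242 barcodes, and 29 barcode sequences occurred in both, none of them a Kupffer cell. The Crtc2-/- library still held 436 Crtc2 UMIs over its kept barcodes, 5.59 CPM (counts scaled to a common total; 5.08 to 6.14), against 650 UMIs and 7.99 CPM (7.39 to 8.63) in the Crtc2+/+ library. A 3' tag need not lie in the deleted part of a gene, so this neither checks nor contradicts the labels. In Kupffer cells Crtc2 stood at 3 UMIs in 2 of 12 cells and 13 UMIs in 12 of 107 cells, a ratio of 0.501 (0.138 to 2.74), so a difference was not detectable at this depth.

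Kupffer cells made up 0.125% (0.0645 to 0.218) of kept Crtc2+/+ barcodes and 1.17% (0.957 to 1.41) of kept Crtc2-/- barcodes, a ratio of 9.34 (5.13 to 18.6). The pool they were drawn from moved the other way: C1q macrophages were 48.4% of kept barcodes in the Crtc2+/+ library and 7.86% in the Crtc2-/- library. Within C1q macrophages the Kupffer share was therefore 0.258% (0.133 to 0.450) against 14.8% (12.3 to 17.6), a ratio of 57.5 (31.6 to 115). Where Vsig4 and Clec4f both had to be present, whatever the Cd5l count, the shares were 0.0728% and 0.382% of kept barcodes and 0.151% and 4.85% of C1q macrophages, with log2 ratios of 2.39 and 5.01 in place of 3.22 and 5.85. Barcodes with 1 or 2 UMIs of the 3 genes were 0.916% and 1.003% of kept barcodes, a ratio of 1.10 (0.809 to 1.48). The selection needs at least 3 UMIs, so this class lies outside it by definition. Within C1q macrophages the same class was 1.89% and 12.8%, a ratio of 6.74 (4.98 to 9.14). A share of barcodes depends on every other cell recovered, and more Kupffer cells cannot be told apart from fewer of the others.

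**Figure D1:**
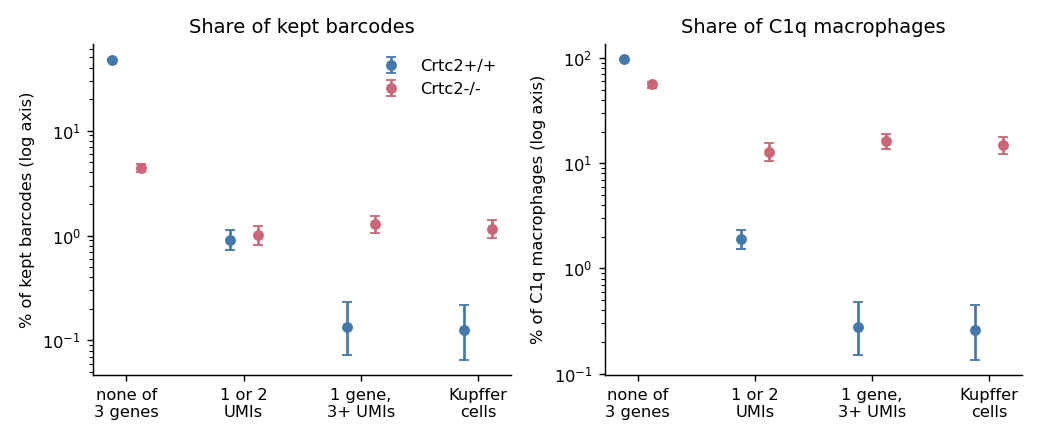
Shares of kept barcodes (left) and of C1q macrophages (right), on log axes, for barcodes split by their UMIs of Cd5l, Vsig4 and Clec4f; points are the single library of each genotype and bars exact 95% binomial intervals. Kupffer cells were 0.125% and 1.17% of kept barcodes, and barcodes with 1 gene at 3 or more UMIs show the same gap between libraries.

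The limits of the selection left out many similar barcodes. In the Crtc2-/- library 93 barcodes, and in the Crtc2+/+ library 9, met every condition but held more than 1 UMI of Stab2, a scavenger receptor of sinusoidal endothelium. Their median depth was 18686 and 17266 UMIs, above the 12637 and 13564.5 of the Kupffer cells, and 12 sinusoidal endothelial markers summed to 1869 and 849 CPM in them, against 283 and 318 CPM in the Kupffer cells. Their 3 selection genes stood at 6753 and 8052 CPM, as high as in the cells kept, at 5907 and 4270 CPM. Of the Kupffer cells themselves, 44 of 107 and 2 of 12 held 1 Stab2 UMI, against 1.77% and 0.91% of cells in a T cell gate with median depths of 4682 and 4580 UMIs. A further 23 barcodes, all in the Crtc2-/- library, exceeded the limit on Sox5. With neither limit the selection would hold 21 and 223 cells, and with no Stab2 UMI allowed 10 and 63.

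The same barcodes also bear on doublets, which were not removed. Scrublet, a caller that compares barcodes with simulated doublets, called none of the 119 Kupffer cells, 5 of the 93 barcodes above the Stab2 limit and 3 of the 23 above the Sox5 limit. UMIs of the 3 genes outside macrophages, from free RNA or doublets, were more frequent in the Crtc2-/- library. Cd5l gave a UMI in 3.77% of 2547 cells of the T cell gate, against 0.267% of 1876 in the Crtc2+/+ library, where Scrublet called 2.28% and 0.7996% of these cells, and the part of either source was not tested. A single cell of the former gate and 0 of the latter met the conditions on the 3 genes, and so did 0 of 1095 and 0 of 508 cells of a B cell gate. In an endothelial gate 12 of 471 (2.55%) and 1 of 200 (0.5%) met them.

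The values that chose the cells ran from barely above the threshold to far beyond it. The sum of the 3 genes was 4 to 158 UMIs in the Crtc2+/+ cells, with a median of 48.5, and 3 to 354 in the Crtc2-/- cells, with a median of 59. Of the Kupffer cells, 0 and 1 had a sum of exactly 3 UMIs and 1 and 1 a sum of 4, while 9 and 19 C1q macrophages just outside had a sum of 2. Another 13 Crtc2+/+ and 117 Crtc2-/- barcodes held 3 or more UMIs of 1 gene only, which was Cd5l in all but 1 Crtc2+/+ barcode with Vsig4. Every Kupffer cell held Cd5l, and none qualified through Vsig4 and Clec4f alone. All 3 genes were present in 7 of 12 and 35 of 107 cells, Cd5l with Vsig4 in 2 and 56, and Cd5l with Clec4f in 3 and 16. Many Crtc2-/- cells met the 2-gene condition through 1 UMI of Vsig4 or Clec4f beside Cd5l. No Crtc2+/+ cell had only 1 such UMI in all, but a Crtc2+/+ cell with 38 UMIs of Cd5l held 1 each of Vsig4 and Clec4f. An example is a Crtc2-/- cell with 111 UMIs of Cd5l and 1 of Vsig4.

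Clec4f and Vsig4 were both present in 7 of 12 Crtc2+/+ and 35 of 107 Crtc2-/- Kupffer cells. The selection left out every cell with neither gene, so how far they mark the same cells cannot be judged from the cells kept. Vsig4 had a UMI in 9 of 12 (75%) and 91 of 107 cells (85.0%), and Clec4f in 10 of 12 (83.3%) and 51 of 107 (47.7%). After thinning each cell to 3000 UMIs, which left out 1 and 3 shallower cells, the shares were 54.5% and 62.5% for Vsig4 and 45.5% and 38.5% for Clec4f, and the intervals of the libraries overlapped for both genes, also before thinning. In the T cell gate Clec4f had a UMI in 0.107% and 0.982% of cells, and Vsig4 in 0% (up to 0.196%) and 1.14%. Summed over cells, Clec4f stood at 611 and 576 CPM, Vsig4 at 1020 and 1114 CPM, and Cd5l at 2639 and 4217 CPM. Per cell, Cd5l ran from 85.0 through a median of 2156 to 6431 CPM in the Crtc2+/+ cells and from 98.4 through 4219 to 14558 CPM in the Crtc2-/- cells, so the groups overlapped widely.

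The fourth marker, Slc40a1, encodes ferroportin, the only known cellular exporter of iron, and took no part in the selection. It stood at 990 CPM (843 to 1154) in the Crtc2+/+ and 1613 CPM (1548 to 1681) in the Crtc2-/- Kupffer cells, with a UMI in 10 of 12 and 102 of 107 cells (81.8% and 87.5% of cells after thinning). Per cell it ran from 0 through a median of 763 to 2040 CPM, and from 0 through 1362 to 6395 CPM. C1q macrophages without the 3 genes held 12.8 and 158 CPM, and the T cell gate 0.5 and 5.2 CPM. Slc40a1 lies on chromosome 1 at 45908068 to 45926523 on the minus strand.

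Folds from here on are log2 ratios of CPM after adding 10 CPM to each side, which understates the difference of low genes, for genes with at least 20 UMIs over both groups. A gene is counted as higher or lower when its log2 ratio reached 1 or -1. CPM are over all cells of a group, and a number of cells given with a CPM counts those with a UMI. Against C1q macrophages without the 3 genes, the comparison that the selection itself made, 15 of 16 counted Kupffer cell genes were higher in the Crtc2+/+ and 18 of 20 in the Crtc2-/- library, where 5.71% and 2.76% of all counted genes were. Their median log2 ratios were 3.79 and 2.41, against -0.12 and 0.01 over all counted genes. These values describe the cells the selection found and carry no further weight. Cd74, the invariant chain that guides MHC class II proteins, stood at 6928 CPM in Crtc2+/+ Kupffer cells and 22481 CPM in the comparison cells, and at 6294 and 17880 CPM in the Crtc2-/- library. Of 15 MHC class II and costimulatory genes 7 and 6 were lower, where 7.97% and 2.47% of all counted genes were, and Cd80 (3.12) and Cd86 (1.48), which encode costimulators, were higher in the Crtc2+/+ library.

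The genes with the highest ratios differed between the libraries. In the Crtc2+/+ library they were Slc40a1 (log2 ratio 5.46), St3gal5, a ganglioside synthase (5.14), Ksr2, a kinase scaffold (4.99), Tgm2, a transglutaminase used in engulfment (4.95), Actn1 (4.92) and Id3, a factor that Kupffer cell development needs (4.84). In the Crtc2-/- library they were Fcna, the secreted lectin ficolin A (4.83), Folr2, a folate receptor (4.59), Cd207, the lectin langerin (4.57), Fabp7 (4.43), Marco (3.99) and Thrb, a thyroid hormone receptor (3.94). The comparison cells differed as well: Slc40a1 and Id3 stood at 12.8 and 12.7 CPM there in the Crtc2+/+ library and at 158 and 128 CPM in the Crtc2-/- library. At the low end stood Negr1, Cxcl10, Dach1, Klrb1b, St18 and Tagap in the Crtc2+/+ library. In the Crtc2-/- library it was Ccr2, the monocyte chemokine receptor, at 38.9 against 466 CPM (-3.28), followed by Fcgr2b, Spon1, Myo5a, Ly6c2 and S100a4.

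**Figure D2:**
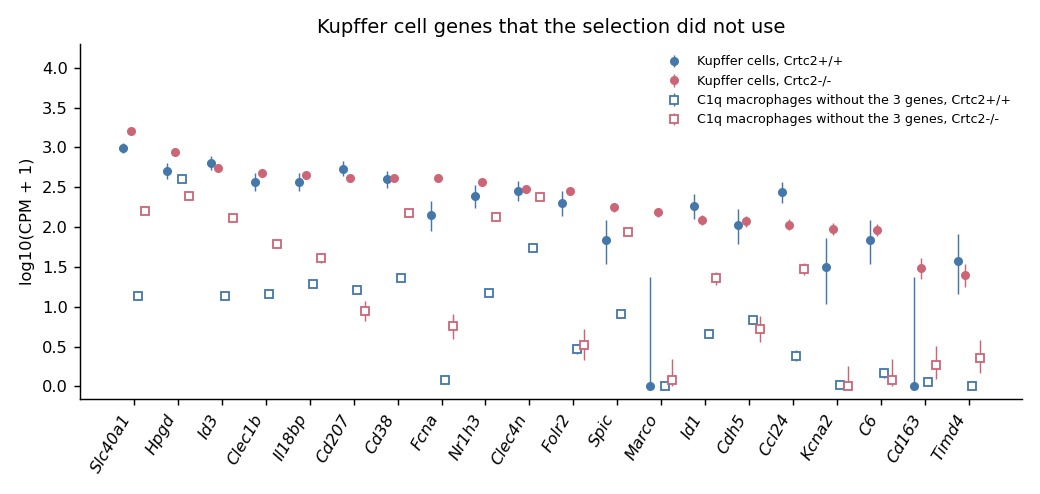
Summed expression, as log10 of CPM plus 1, of 20 Kupffer cell genes that took no part in the selection, in Kupffer cells (filled) and in C1q macrophages without the 3 genes (open) of each library, with exact 95% Poisson intervals of the counts. Slc40a1 stood at 990 and 1613 CPM in Kupffer cells, while Marco was at 0 in the Crtc2+/+ and 152 CPM in the Crtc2-/- cells.

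Markers of long-resident cells were seen in few Kupffer cells, and other Kupffer cell genes in widely varying shares of them. Timd4 had a UMI in 1 of 12 and 10 of 107 cells, Marco in 0 of 12 (an exact interval of up to 26.5% of cells) and 8 of 107, and Cd163 in 0 of 12 and 14 of 107. In the T cell gates Timd4, Marco and Cd163 had a UMI in at most 0.196% of cells. By contrast Clec1b, a C-type lectin, was present in 12 of 12 and 99 of 107 cells, and Nr1h3, which encodes the nuclear receptor LXR-alpha, in 10 and 94. Folr2 was present in 8 and 59, Spic in 6 and 66, Cd207 in 7 and 36 and Ccl24 in 6 and 38. In C1q macrophages without the 3 genes, Clec1b was seen in 9.10% and 28.4% of cells and Nr1h3 in 9.35% and 48.1%. These shares are not thinned. One Crtc2+/+ Kupffer cell stood apart with 8 Ccr2 UMIs, Cd74 at 23367 CPM, no Slc40a1 UMI and a sum of 4 UMIs over the 3 genes.

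Levels followed the number of UMIs of the 3 genes. In C1q macrophages with none, Slc40a1 stood at 12.8 and 158 CPM, and with 1 or 2 UMIs at 69.3 and 209 CPM. Barcodes with a single gene at 3 to 9 UMIs held 199 and 435 CPM, and at 10 or more 931 and 1084 CPM. Kupffer cells with 50 or more UMIs held 1073 and 1813 CPM. Cd74 ran the other way, from 22481 and 17880 CPM with none to 6759 and 5526 CPM at 50 or more, with 4070 CPM in the 5 Crtc2+/+ cells at 10 to 49. The lone Crtc2+/+ Kupffer cell with 3 to 9 UMIs is the cell with Ccr2 just described and lies outside both orders, and the 12 Crtc2-/- Kupffer cells of that class, with Slc40a1 at 614 CPM and Cd74 at 8996 CPM, lay beside the barcodes of a single gene. Barcodes with 10 or more UMIs of 1 gene lay near the Kupffer cells in Slc40a1 and Cd74 but not in every gene. Ccr2 stood at 335 CPM in the 7 such Crtc2+/+ barcodes, against 11.2 CPM in Kupffer cells with 50 or more UMIs, and Folr2 at 65.9 against 352 CPM in the Crtc2-/- library.

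**Figure D3:**
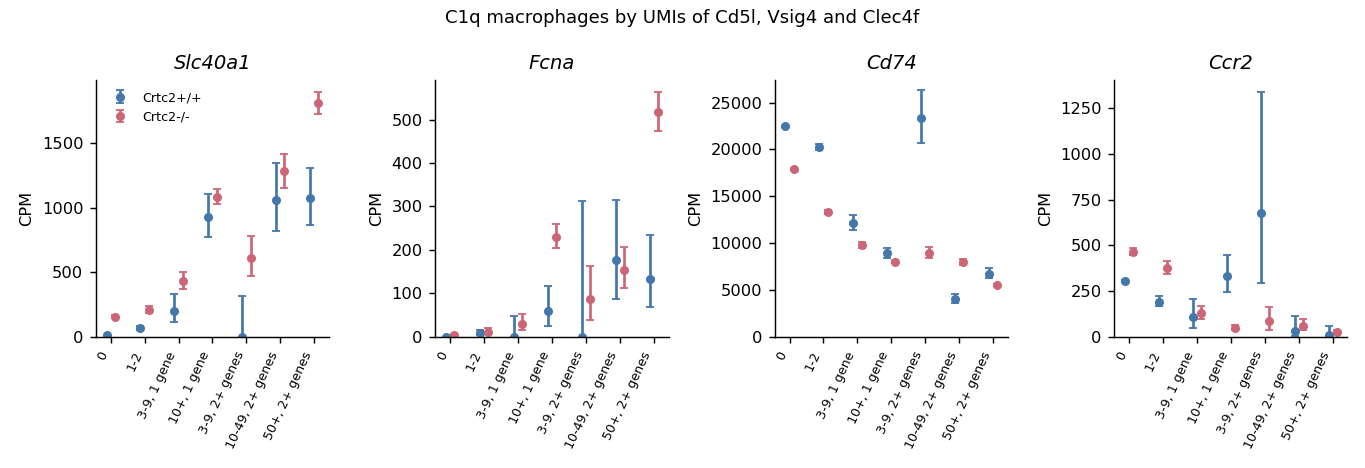
Summed CPM of 4 genes in C1q macrophages ordered by their UMIs of Cd5l, Vsig4 and Clec4f, the last 3 classes being Kupffer cells, with exact 95% Poisson intervals. Slc40a1 ran from 12.8 to 1073 CPM in the Crtc2+/+ and from 158 to 1813 CPM in the Crtc2-/- library, and the Crtc2+/+ point at 3 to 9 UMIs of 2 or more genes is a single cell.

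Between genotypes, Kupffer cells of the Crtc2-/- library had less RNA of lipid-associated, CREB-linked and immediate early genes, and somewhat more of several Kupffer cell genes. The 12 Crtc2+/+ cells gave 163690 UMIs and the 107 Crtc2-/- cells 1414470, so a Crtc2+/+ gene with 0 UMIs could stand at up to 18.3 CPM by the 3-count floor, and 1 cell could carry a gene's whole value. Of 7565 counted genes, 527 (6.97%) were higher and 312 (4.12%) lower in the Crtc2-/- cells, with a median log2 ratio of 0.06. Median mitochondrial shares were 2.22% and 3.003%. A gene with no Crtc2+/+ UMI reached the minimum of 20 UMIs through the Crtc2-/- cells alone and so had to count as higher. Folds over the 3-count floor, also those written as at least a value, cover the counting of UMIs only. They are no lower bound for a gene held by few cells, which 12 cells can miss. The lists described next were not tested. Ratios and medians after thinning come from a selection made anew on barcodes thinned to 3000 UMIs, which held 16 and 164 cells. Shares of cells after thinning keep the cells selected above.

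Of 20 counted Kupffer cell genes outside the selection 5 were higher in the Crtc2-/- cells and 1 lower. Over all counted genes these shares were 6.97% and 4.12%. The median log2 ratio of the list was 0.37, and 2 of the 5 higher genes, Marco and Cd163, had no Crtc2+/+ UMI. Fcna stood at 141 and 409 CPM (log2 ratio 1.48), with a UMI in 5 Crtc2+/+ and 78 Crtc2-/- cells. After thinning it was seen in 27.3% (6.02 to 61.0) and 56.7% (46.7 to 66.4) of cells, against 0.107% and 0.550% unthinned in the T cell gates, and per cell it ran from 0 to 623 and from 0 to 4462 CPM, so the groups overlapped. Spic, the factor for red pulp and iron-recycling macrophages, stood at 67.2 and 177 CPM (1.27), and Kcna2, a potassium channel, at 30.5 and 94.7 CPM (1.37). Marco, a scavenger receptor for bacteria, had 0 UMIs in the 12 Crtc2+/+ cells and 152 CPM in the Crtc2-/- cells, 8.29-fold the 3-count floor. Its UMIs came from 8 of 107 cells, 79.1% of them from 3, so 12 cells could hold none at a like share of cells. Cd163, the haemoglobin receptor, had a UMI in 14 of 107 cells and stood at 1.62-fold the floor. Ccl24, an eosinophil chemokine, was the gene that was lower, at 275 and 106 CPM (-1.30). With Marco and Cd163 at these folds over the floor the median remained 0.37.

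The other Kupffer cell genes differed less. Slc40a1 had a log2 ratio of 0.70, Hpgd, which breaks down prostaglandins, stood at 507 and 866 CPM (0.76), and Nr1h3 at 244 and 369 CPM (0.58). Id3 stood at 641 and 545 CPM, Cd207 at 544 and 414 CPM, Folr2 at 202 and 287 CPM, and Clec1b at 373 and 473 CPM. The same list in the C1q macrophages without the 3 genes had 9 of 16 counted genes higher in the Crtc2-/- library, where 1.54% of all counted genes were, and a median of 1.41. Nr1h3 stood at 13.98 and 132 CPM there, and Spic at 7.07 and 84.6 CPM. Fcna (0.53) and Hpgd (-0.72) had lower ratios there than in Kupffer cells. The medians cover different counted genes, and the difference between the 2 populations was not tested.

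Of 17 counted genes of lipid-associated and scar-associated macrophages 6 were lower in the Crtc2-/- Kupffer cells, beside 4.12% of all counted genes. None was higher, and the median log2 ratio was -0.81. Trem2, a lipid receptor, stood at 330 CPM with a UMI in 10 of 12 Crtc2+/+ cells and 49.5 CPM in 35 of 107 Crtc2-/- cells (-2.51). After thinning these were 63.6% and 11.5% of cells, and in the T cell gates 2.29% and 0.393% of cells held a UMI unthinned. Per cell it ran from 0 through a median of 327 to 676 CPM, and from 0 through a median of 0 to 738 CPM, so high cells occurred in both libraries and were the rule in the Crtc2+/+ cells. Mmp12, a macrophage elastase, stood at 892 and 93.3 CPM (-3.13), with a UMI in 5 and 8 cells and 65.9% of the Crtc2-/- UMIs in 1 cell. Gpnmb, a lysosomal glycoprotein, stood at 116 and 11.3 CPM (-2.56), and 63.2% of the Crtc2+/+ UMIs came from 1 cell.

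Spp1, which encodes osteopontin, stood at 48.9 and 12.02 CPM (-1.42), with a UMI in 7 and 16 cells. The tetraspanin Cd63 stood at 379 and 140 CPM (-1.37). Cx3cr1, the fractalkine receptor, was also lower (-1.02). Among the macrophages without the 3 genes, the same list had a median of 0.17, with 3 of 18 genes higher and 1 lower, the latter beside 1.25% of all counted genes. Trem2 stood at 248 and 95.3 CPM there, and Gpnmb at 6.33 and 44.4 CPM.

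Of 16 counted genes of the CREB pathway 8 were lower, beside 4.12% of all counted genes, and none was higher. The median log2 ratio was -0.97. Pde3b, Pde4b and Pde4d, phosphodiesterases that break down cAMP, stood at 91.6, 477 and 48.9 CPM in Crtc2+/+ cells and 12.02, 153 and 12.02 CPM in Crtc2-/- cells (-2.21, -1.58 and -1.42). Sik3 and Sik1, kinases that keep CRTC proteins in the cytoplasm, stood at 452 and 42.8 CPM against 120 and 14.8 CPM (-1.83 and -1.09). Nr4a1, an immediate early nuclear receptor, stood at 409 and 126 CPM (-1.63), with 40.3% of the Crtc2+/+ UMIs in 1 cell. Crem, a CREB relative, had a log2 ratio of -1.37, and Crtc3, a paralogue of Crtc2, one of -1.07. Creb1 itself stood at 79.4 and 85.5 CPM. In macrophages without the 3 genes the median of the list was 0.01. Summed over the list, Kupffer cells held 3287 and 1524 CPM and these macrophages 1188 and 1328 CPM. Against these macrophages, 9 of 19 counted genes were higher in Crtc2+/+ Kupffer cells and 1 of 19 in Crtc2-/- Kupffer cells, and 0 and 1 were lower. Over all counted genes 5.71% and 2.76% were higher.

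Genes that respond to tissue dissociation stood beside these. Of 15 counted dissociation and heat shock genes 6 were lower in the Crtc2-/- Kupffer cells, beside 4.12% of all counted genes. None was higher, and the median was -0.76. The 6 were Fosb (898 and 153 CPM), Junb (1161 and 402), Hspa1a (257 and 87.0), Egr1 (464 and 198), Atf3 (544 and 241) and Fos (1100 and 524). Fosb came from 4 of 12 Crtc2+/+ cells, with 39.5% of its UMIs in 1 of them. Summed over the list, Kupffer cells held 7691 and 4373 CPM and macrophages without the 3 genes 3622 and 3967 CPM. Nr4a1, Dusp1 and Crem belong to the immediate early response as well as to the CREB list, and the part of handling in either result was not tested.

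**Figure D4:**
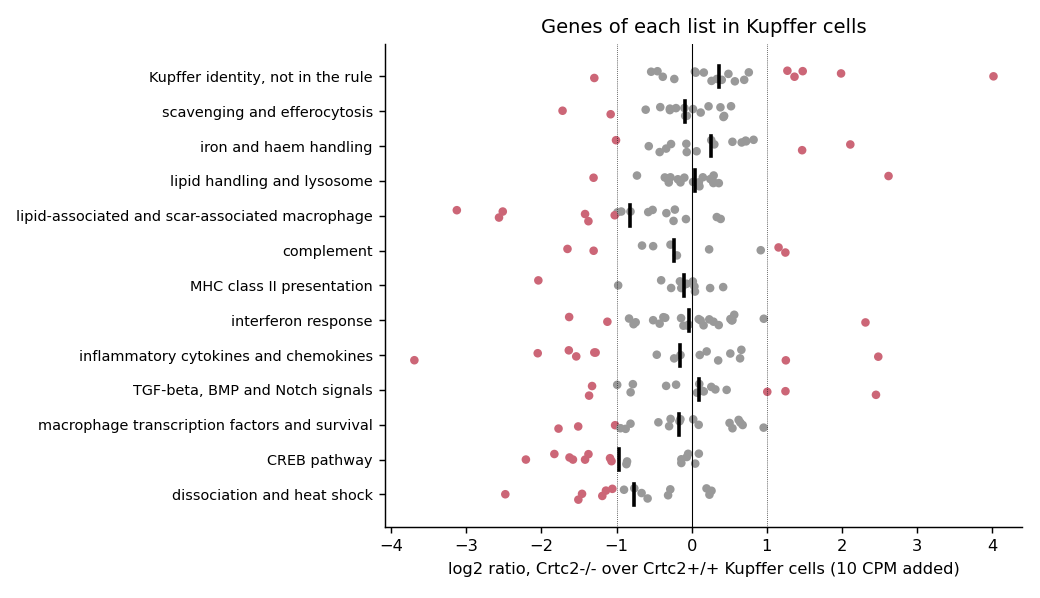
Log2 ratio of Crtc2-/- over Crtc2+/+ Kupffer cells, after adding 10 CPM, for each counted gene of 13 lists, with the median of each list as a bar and genes at or beyond 1 or -1 in red. The CREB pathway (-0.97) and the lipid-associated list (-0.81) have the lowest medians, and the dissociation list stands at -0.76.

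Of 17 counted cytokines and chemokines 6 were lower and 2 higher, beside 4.12% and 6.97% of all counted genes. The list median of -0.15 turned to 0.12 after thinning and to 0.10 when genes were counted from 1 UMI. Il1b stood at 1216 CPM in 9 of 12 and 385 CPM in 54 of 107 cells (-1.64; 54.5% and 30.8% of cells after thinning), and Il1a at 214 and 67.2 CPM (-1.54). Cxcl2, a neutrophil chemokine, stood at 745 and 173 CPM (-2.05), with 75.4% of the Crtc2+/+ UMIs in 1 cell, and all 21 Crtc2+/+ UMIs of Cxcl1 came from 1 cell. Ccl9 (-1.28) and Ccl24 completed the lower genes. Ccl2, the monocyte chemokine, stood at 24.4 and 72.1 CPM, with a UMI in 1 and 20 cells. Cxcl13, a B cell chemokine, had no Crtc2+/+ UMI and stood at 46.0 CPM in the Crtc2-/- cells, 2.51-fold the 3-count floor. Its UMIs came from 7 cells, so 12 cells could hold none at a like share of cells.

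Iron and haem genes were mixed, with 2 of 17 higher and 1 lower, beside 6.97% and 4.12% of all counted genes. The list median of 0.26 turned to -0.034 after thinning. Hmox1, a haem oxygenase, and Blvrb, biliverdin reductase B, stood at 538 and 446 CPM in the Crtc2+/+ cells. In the Crtc2-/- cells they stood at 895 and 713 CPM (0.72 and 0.67). Tfrc, the transferrin receptor, had no UMI in the 12 Crtc2+/+ cells and was present in 37 of 107 Crtc2-/- cells, at least 1.81-fold higher. After thinning it was seen in 0 of 11 and 9.62% of Kupffer cells and in 3.32% and 4.33% of the T cell gates. Cp, the ferroxidase ceruloplasmin, had 1 and 49 UMIs, a ratio of 5.67 (0.971 to 228). The ferritin chains Fth1 and Ftl1 stood at 7435 and 8052 CPM against 6145 and 8429 CPM, and Nfe2l2, the oxidative stress factor NRF2, was lower (-1.01).

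Haemoglobin RNA was found beside the iron genes. Hbb-bs had 0 UMIs in the Crtc2+/+ and 1214 UMIs in the Crtc2-/- Kupffer cells, of which 1197 (98.6%) came from 1 cell. The T cell gates held 0.51 and 21.3 CPM. A UMI was seen in 17 Crtc2-/- Kupffer cells in all.

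Scavenging and lipid handling genes were at like levels in both libraries for the most part. Over all counted genes 6.97% were higher and 4.12% lower, which stands beside each count given here. Of 17 scavenging and efferocytosis genes 2 were lower (median -0.09), Tgm2 at 819 and 242 CPM (-1.72) and the fatty acid receptor Cd36 at 489 and 226 CPM (-1.08). Of 20 lipid handling and lysosome genes Abca1, the cholesterol exporter, was lower at 782 and 310 CPM (-1.31), and Fabp4, a fatty acid carrier, was higher, with 1 and 126 UMIs and a ratio of 14.6 (2.57 to 580). Their median was 0.05. Among 10 complement genes the receptors C3ar1 (299 and 88.4 CPM) and C5ar1 (226 and 85.5 CPM) were lower, and C4b and Cfb were higher, with a median of -0.24 that turned to 0.015 when per-cell CPM were averaged.

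Antigen presentation differed little. Among 13 MHC class II and costimulatory genes only Cd80 was lower, at 226 and 47.4 CPM (-2.04), and the median was -0.10. Cd80 had a UMI in 4 Crtc2+/+ and 40 Crtc2-/- cells. Of 25 interferon response genes 1 was higher and 2 lower (median -0.04), near the 6.97% and 4.12% of all counted genes. The higher one, Cxcl10, had 56.5% of its 271 Crtc2-/- UMIs in 1 cell and a log2 ratio of -0.055 after thinning, and Gbp2, one of the lower ones, 91.1% of its 45 Crtc2+/+ UMIs. A list of PD-1 ligands and suppression genes had 8 counted genes and a median of -0.42. Of these, Lgals9 (55.0 and 180 CPM) and Tnfsf13 (36.7 and 119 CPM), which encode galectin-9 and APRIL, were higher. Entpd1, the ecto-ATPase CD39, was lower at 1063 and 341 CPM (-1.61).

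Among signals that shape the Kupffer cell niche, 3 of 17 TGF-beta, BMP and Notch genes were higher and 2 lower. Over all counted genes these shares were 6.97% and 4.12%. The list median of 0.10 turned to -0.0042 when per-cell CPM were averaged. Hes1, a Notch target, had 2 UMIs in 2 Crtc2+/+ cells and 158 UMIs in 49 Crtc2-/- cells, a ratio of 9.14 (2.49 to 76.1), while Tgfbr1, a TGF-beta receptor, stood at 892 and 340 CPM (-1.37) and Rbpj, the DNA-binding partner of Notch, at 116 and 40.3 CPM (-1.33). Where barcodes were thinned to 3000 UMIs before the selection, the log2 ratio of Hes1 was -0.031 over 16 and 164 cells. Of 19 macrophage transcription factors and survival genes Bhlhe40 (-1.77), Klf4 (-1.51) and Klf2 (-1.02) were lower and none was higher, with a median of -0.16. Maf, which keeps Kupffer cells in their mature state, stood at 409 and 805 CPM (0.96). Of 16 cell cycle genes 12 had no UMI in the Crtc2+/+ cells, so the list is not summed up. Mki67 had a UMI in 0 of 12 and 14 of 107 cells, with 63.6% of its UMIs in 1 cell.

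Among genes that met the conditions for naming, which leave out haemoglobin, immunoglobulin and some other classes, Marco had the highest ratio. It was followed by Negr1, a neuronal adhesion protein, with 3 and 413 UMIs (a ratio of 15.9, 5.41 to 77.6), and Gfra2, a receptor of the neurturin family, with 0 and 87 UMIs in 37 cells (at least 3.36-fold higher). Hes1, Cxcl10, Limd2, Dek, Asb2, Adamdec1 and Snrnp48 followed, the last 5 with 1 to 4 UMIs in the Crtc2+/+ cells. Negr1 stood at 427 and 354 CPM in the macrophages without the 3 genes, so it was low in the Crtc2+/+ Kupffer cells alone among these populations. On the low side stood Cxcl1, Thbd, Mmp12, Stard13, Gpnmb, Airn, Mmp13, Trem2, Fosb and Atp8b4. Thbd came from 1 Crtc2+/+ cell (log2 ratio 0.69 after thinning) and 94.1% of Stard13 from 1 cell, whereas Airn came from 7 cells (85.5 and 6.36 CPM) and the collagenase Mmp13 from 6 (354 and 53.7 CPM).

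The Crtc2-/- Kupffer cells were not uniform. Of the 107, 8 held Marco, and this split was made after the data were seen. Of the 8 cells, 7 also held Timd4 and 5 Cd163, while 3 of the other 99 held Timd4. Their median depth was 9789 UMIs, against 12830 in the others.

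Cells with Marco carried more RNA of the resident Kupffer cell genes. Timd4 stood at 304 and 6.02 CPM in cells with and without Marco, Cd163 at 351 and 9.03 CPM, Fcna at 1685 and 327 CPM, Folr2 at 960 and 244 CPM and the complement component C6 at 655 and 55.7 CPM. The selection genes were higher too, Vsig4 at 3897 and 935 CPM and Clec4f at 2422 and 457 CPM. Cd207 went the other way, at 11.7 CPM over the 8 cells, with a UMI in 1 of them, and 440 CPM over the others. Of 20 Kupffer cell genes 8 were higher, where 3.67% of 7276 counted genes were, and 1 was lower. Marco itself chose these cells, and is 1 of the 8.

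The same 8 cells held less RNA of antigen presentation, inflammation and immediate early response. Cd74 stood at 1685 and 6590 CPM, H2-Aa at 749 and 3124 CPM and H2-Ab1 at 515 and 2256 CPM. Of 13 MHC class II and costimulatory genes 6 were lower, of 16 inflammatory genes 10 and of 15 dissociation genes 11, where 15.6% of all counted genes were. Il1b stood at 70.2 and 405 CPM, and Fos at 11.7 and 557 CPM. Cxcl13 (644 and 7.52 CPM) and Apoc1, an apolipoprotein (2083 and 325 CPM), were higher. Of 9 hepatocyte markers 4 were higher as well, and their part in the result was not tested.

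**Figure D5:**
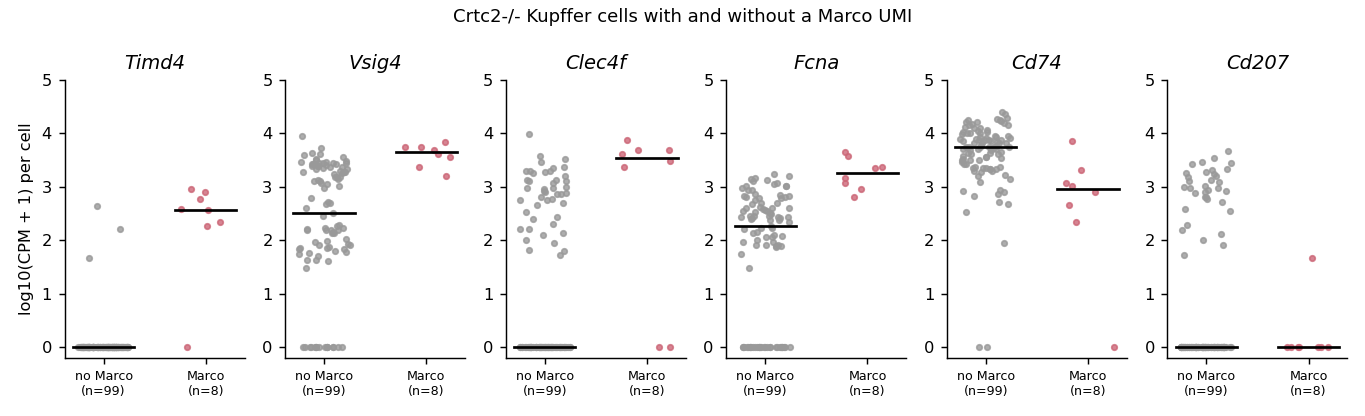
Expression per cell, as log10 of CPM plus 1, of 6 genes in the 107 Crtc2-/- Kupffer cells, split by whether a Marco UMI was seen; each point is a cell and the bar the median. The 8 cells with Marco lie high for Vsig4 and Fcna, 7 of them hold Timd4, and 1 of them holds Cd207. Cd74 is low in most of the 8 but stands at 7019 CPM in 1.

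Transcripts of other cell types were low but present. In Crtc2+/+ and Crtc2-/- Kupffer cells 15 hepatocyte markers summed to 733 and 643 CPM, 10 monocyte markers to 348 and 677, 10 dendritic cell markers to 538 and 600 and 10 stellate cell markers to 6.11 and 11.3. Neutrophil markers summed to 104 and 285 CPM, where S100a9 had 172 Crtc2-/- UMIs, 91.3% of them in 1 cell. Lymphocyte markers summed to 12.2 and 187 CPM, with Igkc at 0 and 88.4 CPM, against 23.8 and 98.4 CPM in the T cell gates. Alb stood at 104 and 76.4 CPM, against 40.3 and 62.2 CPM in the T cell gates. The part of these transcripts in the ratios between libraries was not tested.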

How the data were processed

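The authors deposited 1 matrix of raw UMI counts per library. Per the file headers, Cell Ranger 7.1.0 wrote them. CPM are UMIs of a gene per 1000000 UMIs of the same cells. The submitters' processing notes name Cell Ranger, Seurat and mm10. Barcodes were kept with at least 500 UMIs, 250 genes and at most 20% mitochondrial UMIs. Kupffer cells, and all gene lists, were chosen with earlier results of these data known.

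UMIs were summed per library over the cells of a group and given as CPM with exact Poisson intervals, and shares with exact Clopper-Pearson intervals (scipy 1.17.1, numpy 2.4.6, pandas 2.3.3, Python 3.11.15, matplotlib 3.10.9). With 1 library per genotype no model was fitted. Log2 ratios were taken after adding 10 CPM for genes with at least 20 UMIs, and an absolute log2 ratio of 1 was counted. The script was tested on simulated data. Beyond the 24 lists, the genes named are the 10 highest and 10 lowest ratios between genotypes and the 6 of each against other macrophages. They needed at least 50 CPM, a UMI in 5% of cells and 20% of the highest level in gates of T, B, neutrophil, endothelial and hepatocyte cells. Left out were the selection and C1q genes and mitochondrial, ribosomal, haemoglobin, immunoglobulin, T cell receptor, sex-linked and predicted genes. From every list, no more than 6 genes with the greatest absolute ratios were named as well; further list members were chosen after their values were seen. Doublets were kept, and Scrublet (scanpy 1.11.5) served as an alternative. Alternatives changed the pseudocount, the count minimum, depth, the selection and the mitochondrial limit. The limit of no Stab2 UMI was added after seeing the data. Gene positions are from GENCODE M21 (GRCm38). No untreated liver was analysed here.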

Additional observations from a re-analysis of the deposited data

Results flagged for a closer look

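Gpnmb differed between the libraries in direction: its log2 ratio of Kupffer cells over C1q macrophages without the 3 genes was 2.95 in the Crtc2+/+ and -1.35 in the Crtc2-/- library. The levels were 116 against 6.33 CPM and 11.3 against 44.4 CPM, 63.2% of the Crtc2+/+ Kupffer cell UMIs came from 1 of 12 cells, and the difference was not tested.

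Barcodes outside the selection carried its genes. The limit on Stab2 left out 9 Crtc2+/+ and 93 Crtc2-/- barcodes that met every other condition, and Slc40a1 stood at 1623 and 1683 CPM in them. The limit on Sox5 left out 23 Crtc2-/- barcodes, with Sox5 at 1216 CPM, the Fc receptor Fcgr4 at 2471 CPM and Slc40a1 at 306 CPM, and 0 of 9612 Crtc2+/+ barcodes.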

How the results depend on the processing

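The share ratios kept their direction and stayed within their counting intervals under every alternative run, at log2 2.39 to 3.48 of kept barcodes and 5.01 to 5.92 of C1q macrophages. No paired analysis was possible because each genotype had 1 library. With a pseudocount of 1 CPM, 1034 genes were higher and 495 lower between genotypes, 1594 and 3953 against other Crtc2+/+ macrophages, and 533 and 720 against other Crtc2-/- macrophages. Counting genes from 1 UMI, 492 were lower between genotypes. With barcodes thinned to 3000 UMIs before the selection, 1287 were higher and 2371 lower in the Crtc2+/+ comparison with other macrophages. That selection held 16 and 164 Kupffer cells, so the ratios called thinned also cover other cells. With Vsig4 and Clec4f in place of the 3 genes, 1774 and 548 were lower in the Crtc2+/+ and Crtc2-/- comparisons with other macrophages. With no limit on Sox5 or Stab2, 161 were lower between genotypes, 684 lower in the Crtc2+/+ and 502 higher in the Crtc2-/- comparison with other macrophages. Of 171 list medians recomputed, 17 changed sign. Complement became 0.015 by the mean of cells, 0.45 thinned, 0.071 with Vsig4 and Clec4f and 0.15 with no limits. TGF-beta and Notch became -0.0042 by the mean of cells, -0.059 thinned, -0.51 with Vsig4 and Clec4f and -0.067 with no Stab2 UMI. Inflammatory genes became 0.10 from 1 UMI and 0.12 thinned. Lipid handling became -0.0025 with at least 6 UMIs of the 3 genes, -0.026 thinned and -0.021 with no limits. MHC class II became 0.092 with at least 6 UMIs, iron handling -0.034 thinned, scavenging 0.11 with Vsig4 and Clec4f, and the cell cycle, 1.27 as first computed, -0.81 with no limits. Hes1 became -0.031 thinned, Cxcl10 -0.055 thinned, -0.097 with Vsig4 and Clec4f and -0.82 with no limits, and Thbd 0.69 thinned and 0.34 with no Stab2 UMI. Beside these 6 sign changes, 63 of 274 gene ratios moved outside their counting intervals, with 14 of 25 genes moved when thinned and 16 of 25 with no limits. The causes were not tested. The medians of the CREB, lipid-associated and dissociation lists kept their sign under every alternative run, the last between -1.27 and -0.40. The Crtc2+/+ values rest on 12 cells.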
